A study of Mus musculus with 8 samples.

Results

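Genes of reactive astrocytes, 31 of the 56748 genes in the count table, were followed in forebrain RNA of 18-month-old mice. They were chosen by symbol as sets known from reactive astrocytes: 8 general markers (Lcn2 to Aspg), 9 inflammatory-type markers (H2-T23 to Amigo2), 11 injury-type markers (Clcf1 to B3gnt5) and 3 further genes (S100a6, S100a11 and Tnc). The choice was made with earlier results of these data known. All 31 symbols matched an Ensembl identifier in the table. TgCRND8 transgenic mice (Tg, 4 libraries), which overexpress the amyloid precursor protein APP, were set against non-transgenic littermates (NTg, 4 libraries). The line is known to carry a mutated human APP under the hamster prion promoter and to form amyloid plaques. Frozen, pulverised forebrain from 1 side of the brain was used, so every value is a sum over all cell types. In such tissue fewer cells of a type and less RNA per cell cannot be told apart.

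Astrocytes answer injury, infection and plaques with a change of state called reactive gliosis, in which intermediate filaments, secreted proteins and surface receptors increase. A core of genes rises after most insults, and further sets have been described as leaning towards systemic inflammation or towards ischaemic injury. The signals involved include the transcription factor STAT3 downstream of cytokines of the interleukin-6 family, interferon signalling, and NF-kB. Many of these genes are also used by microglia, vessels or meninges.

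Library totals lay between 57129090 and 65242741 counts, and 21588 genes were abundant enough to test. App, the mouse gene to which part of the transgene's reads can align, was at 2532 to 2980 CPM in Tg and 1390 to 1623 CPM in NTg libraries. CPM relate each count to the size of its library, corrected by the TMM method, so that libraries of unequal depth can be compared. Gfap, the filament protein that defines reactive astrocytes, was at 607, 1940, 1533 and 2057 CPM in Tg replicates 1 to 4. In NTg libraries it lay between 392 and 461 CPM. No library's App level went against its genotype label. The Tg libraries were unequal in Gfap, with replicate 1 lowest. The 15 astrocyte identity genes were all abundant enough to test and summed to 5772 to 6210 CPM in Tg and 5677 to 6587 CPM in NTg libraries.

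For 27 of the 31 members RefSeq gives at least 1 promoter window of 300 bases, 250 before and 50 after a start site. The windows are of build GRCm38.p6, which is older than the build of the counts. Iigp1, S100a10, Cd109 and Clcf1 have no window, so no motif was searched for in them. Each window was searched on both strands for 5 motifs: a STAT site (TTCNNNGAA), an interferon-stimulated response element (GAAA, any 2 bases, GAAA), an AP-1 site (TGACTCA), a glucocorticoid receptor site (ACANNNTGT) and an NF-kB site (GGG, any 5 bases, CC). The 4 windows below are shown because Tgm1 had the highest fold change of the members and Steap4 carries the same STAT motif with a much smaller one. Gbp2 and H2-T23 carry the interferon element and had their highest value in NTg replicate 1. Among NTg libraries, the other carriers were highest in replicate 1 (Srgn), replicate 2 (Fbln5) or replicate 4 (Tgm1 and Tm4sf1). Capitals mark STAT and interferon motifs.
Tgm1: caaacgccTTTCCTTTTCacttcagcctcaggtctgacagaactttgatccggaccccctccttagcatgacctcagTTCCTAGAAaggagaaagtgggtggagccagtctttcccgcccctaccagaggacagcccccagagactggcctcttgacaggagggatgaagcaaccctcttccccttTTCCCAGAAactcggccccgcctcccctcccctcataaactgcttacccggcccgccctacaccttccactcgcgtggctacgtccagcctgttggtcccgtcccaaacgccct
Steap4: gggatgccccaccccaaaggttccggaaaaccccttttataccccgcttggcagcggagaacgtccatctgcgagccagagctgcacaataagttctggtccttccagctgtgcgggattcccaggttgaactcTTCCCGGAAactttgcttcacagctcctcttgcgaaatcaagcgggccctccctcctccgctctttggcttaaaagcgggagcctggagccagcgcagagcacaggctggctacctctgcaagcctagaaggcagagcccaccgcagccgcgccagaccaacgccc
Gbp2: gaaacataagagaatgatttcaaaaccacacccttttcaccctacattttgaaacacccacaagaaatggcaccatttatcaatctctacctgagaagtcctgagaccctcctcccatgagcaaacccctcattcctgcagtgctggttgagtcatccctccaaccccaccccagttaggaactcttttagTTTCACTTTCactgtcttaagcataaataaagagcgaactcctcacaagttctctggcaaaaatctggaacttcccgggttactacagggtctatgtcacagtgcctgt
H2-T23: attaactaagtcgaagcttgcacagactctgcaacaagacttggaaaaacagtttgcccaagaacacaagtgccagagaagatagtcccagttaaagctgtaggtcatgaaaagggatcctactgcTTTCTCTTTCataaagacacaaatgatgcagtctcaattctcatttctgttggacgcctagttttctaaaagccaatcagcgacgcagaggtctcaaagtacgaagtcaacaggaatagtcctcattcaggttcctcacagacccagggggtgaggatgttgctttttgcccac
The Tgm1 window is chr14:55713443-55713742 on the minus strand, with STAT motifs starting 173 and 64 bases upstream and the interferon element 242 bases upstream. The Steap4 window is chr5:7960222-7960521 on the plus strand, with 1 STAT motif 116 bases upstream. The Gbp2 window, chr3:142620413-142620712 on the plus strand, holds the interferon element 59 bases upstream, and the H2-T23 window, chr17:36032652-36032951 on the minus strand, holds it 124 bases upstream.

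Across the members the STAT motif was found for Emp1, Sphk1, Steap4 and Tgm1, in 13.5% of the 37 member windows against 8.30% of all 32851 windows. The interferon element was found for Fbln5, Gbp2, H2-T23, Srgn, Tgm1 and Tm4sf1, in 16.2% of member windows against 3.44% of all. The AP-1 motif was found for Emp1, Gbp2, S100a11 and Sphk1 (13.5% against 5.20%), and the glucocorticoid receptor motif for Lcn2, Slc10a6 and Tm4sf1 (8.11% against 6.85%). The NF-kB motif stands in 73.0% of member windows and in 50.8% of all, so it separates few genes. A match is a run of letters and no evidence of binding, and several windows of 1 gene can overlap.

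Over the 31 members, 29 were abundant enough to test, and edgeR's quasi-likelihood test called 0 of them with Benjamini-Hochberg adjustment over all genes tested at 0.05. The background for that rule was 0.0139% of all genes, or 3 of 21588. At an unadjusted p under 0.05 the same test had 10 members higher in Tg and 0 lower, where the background was 4.68% higher and 2.68% lower. Another tool, DESeq2, called 7 members, all higher in Tg, against a background of 1.25%. The tool limma-voom called 0 members, and 3 genes over all genes tested. In 6 members all 4 Tg libraries lay above all 4 NTg libraries, against a background of 2.62% of genes. The log2 fold change was above 0 in 24 of the 29 tested members, against a background of 49.2%. Since the members were chosen with earlier results of these data known, these shares describe them and are no test. The median log2 fold change (Tg over NTg) was 0.21 for the 29 tested members and -0.0024 for all genes tested. It was 0.63 for the general, 0.15 for the inflammatory, 0.20 for the injury-type and 0.30 for the further members. The 2 members not tested were Ugt1a1, which conjugates bilirubin, with 1 count in a single Tg library, and Slc10a6, a transporter of sulphated steroids, with 1 to 6 counts a library.

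**Figure D1:**
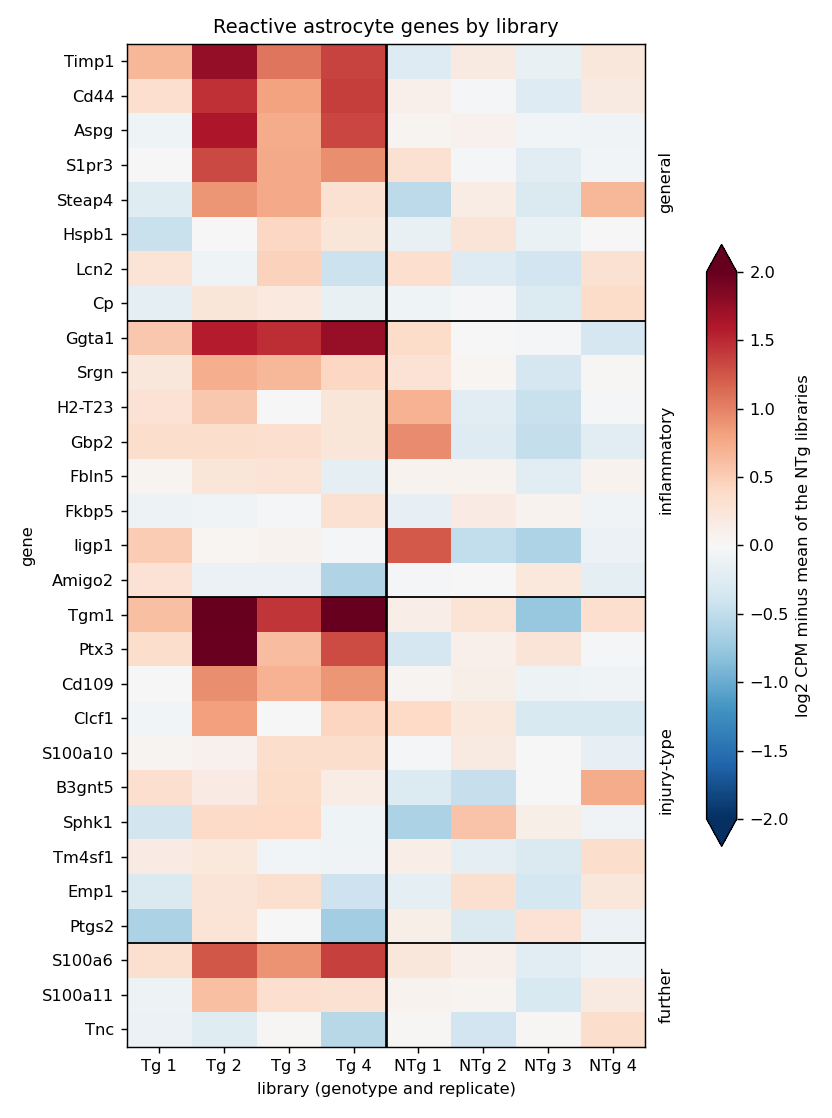
Log2 CPM (prior count 2) of the 29 tested members in each library, minus the mean of the 4 NTg libraries, with Tg libraries to the left and colours limited to 2 in either direction. Rows are grouped by subset and ordered by fold change. The red cells cluster in Tg replicates 2 to 4 of 10 genes, and NTg replicate 1 has its own red cells at Iigp1, Gbp2 and H2-T23.

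Of the 8 general markers, 4 were higher in Tg at an unadjusted p under 0.05, against a background of 4.68%. The groups did not overlap in Timp1 and Cd44, but overlapped in S1pr3, in Aspg and in the other 4 markers. Timp1, an inhibitor of matrix metalloproteinases, was at 0.905, 1.97, 1.20 and 1.47 CPM in Tg replicates 1 to 4 and at 0.462, 0.636, 0.498 and 0.653 CPM in NTg replicates 1 to 4. Every Tg library lay above every NTg library. Its log2 fold change was 1.30 with SE 0.25 from 4 libraries per genotype (edgeR adjusted p = 0.121, DESeq2 adjusted p = 0.00165). In the GENCODE annotation Timp1 lies inside the neuronal gene Syn1 on the opposite strand, and the library kit does not mark strand. Syn1 itself was at 293 to 335 CPM in Tg and 290 to 369 CPM in NTg libraries, which overlap.

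Cd44, the receptor for the matrix sugar hyaluronan, was at 8.65, 18.9, 12.0 and 18.0 CPM in Tg replicates 1 to 4 and between 5.74 and 7.80 CPM in NTg libraries. The groups did not overlap, although Tg replicate 1 was closer to the NTg range than to the other Tg libraries. The log2 fold change was 1.06 (SE 0.23; edgeR adjusted p = 0.155, DESeq2 adjusted p = 0.000327). S1pr3, a receptor for sphingosine phosphate, was at 8.27, 20.4, 13.9 and 15.7 CPM in Tg replicates 1 to 4 and between 7.09 and 10.1 CPM in NTg libraries (log2 fold change 0.82, SE 0.24; edgeR adjusted p = 0.316, DESeq2 adjusted p = 0.0207). Its exons overlap the non-coding gene Gm32834, which averaged 0.733 ± 0.0839 CPM in Tg and 0.698 ± 0.118 CPM in NTg. Here Tg replicate 1 lay within the NTg range while replicates 2 to 4 lay above it. Aspg, an asparaginase, was at 6.46, 21.2, 11.5 and 17.4 CPM in Tg replicates 1 to 4 and between 6.49 and 7.28 CPM in NTg libraries (log2 fold change 1.04, SE 0.30; edgeR adjusted p = 0.309, DESeq2 adjusted p = 0.168). Tg replicate 1 was the lowest of all 8 libraries for Aspg, and no tool called the gene with all libraries in.

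The other 4 general markers include Lcn2, a lipocalin that binds iron-loaded siderophores and is among the strongest markers of astrocytes after systemic inflammation. Lcn2 was at 1.28, 0.987, 1.46 and 0.772 CPM in Tg replicates 1 to 4 and at 1.34, 0.874, 0.800 and 1.31 CPM in NTg replicates 1 to 4. The genotypes overlapped fully, and the log2 fold change was 0.06 (SE 0.25) from 45 to 85 counts a library. Steap4, a metalloreductase, averaged 0.668 ± 0.225 CPM in Tg and 0.492 ± 0.198 CPM in NTg (SD, n = 4; log2 fold change 0.44, SE 0.33), again with overlap. Hspb1, a small heat shock protein, averaged 6.14 ± 1.5 CPM in Tg and 5.80 ± 0.801 CPM in NTg. Ceruloplasmin, Cp, a ferroxidase made by astrocytes and choroid plexus, averaged 23.3 ± 3.63 CPM in Tg and 23.01 ± 4.53 CPM in NTg (log2 fold changes 0.08 and 0.02, SE 0.18 and 0.15). Exons of Cp overlap those of Hps3, a protein-coding gene on the opposite strand. Hps3 averaged 23.9 ± 0.709 CPM in Tg and 22.5 ± 1.20 CPM in NTg, a level like that of Cp. In all 4 markers the difference between genotypes was smaller than the spread within them.

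Among the 9 inflammatory-type markers, Ggta1 had the highest fold change. Srgn had an unadjusted edgeR p under 0.05 but was called by no tool. The interferon-inducible members overlapped between genotypes. Ggta1, which adds a terminal galactose to surface glycans, was at 8.03, 16.4, 15.3 and 18.5 CPM in Tg replicates 1 to 4 and at 7.07, 5.48, 5.40 and 4.34 CPM in NTg replicates 1 to 4. The groups did not overlap. Its log2 fold change was 1.38 (SE 0.24; edgeR adjusted p = 0.107, DESeq2 adjusted p = 1.84e-06). Srgn, the core protein of a secretory granule proteoglycan that blood and immune cells also make, was at 8.07, 11.4, 10.9 and 9.22 CPM in Tg replicates 1 to 4 and between 5.42 and 8.39 CPM in NTg libraries. Tg replicate 1 lay within the NTg range, and the log2 fold change was 0.50 (SE 0.15; edgeR adjusted p = 0.330, DESeq2 adjusted p = 0.0664).

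Gbp2, a guanylate-binding protein induced by interferon, was at 7.29, 7.27, 7.18 and 6.74 CPM in Tg replicates 1 to 4, and at 11.05, 4.75, 4.09 and 4.94 CPM in NTg replicates 1 to 4. The Tg libraries were close together and lay above NTg replicates 2 to 4, but NTg replicate 1 was the highest of all. Iigp1, an interferon-induced GTPase, showed the same pattern, at 4.36, 3.14, 3.22 and 3.02 CPM in Tg replicates 1 to 4 and 7.17, 2.18, 1.99 and 2.81 CPM in NTg replicates 1 to 4. H2-T23, a non-classical class I molecule, was at 17.2, 20.6, 14.0 and 16.6 CPM in Tg and 22.9, 12.1, 10.4 and 13.7 CPM in NTg replicates 1 to 4. All 3 genes thus had their highest value in NTg replicate 1 and values above NTg replicates 2 to 4 in all Tg libraries. Their log2 fold changes were 0.20 (SE 0.28), -0.04 (SE 0.38) and 0.21 (SE 0.22) with all libraries. Without NTg replicate 1 they were not called either, with 0.63 for Gbp2 (edgeR adjusted p = 0.103), 0.56 for Iigp1 (edgeR adjusted p = 0.421) and 0.50 for H2-T23 (edgeR adjusted p = 0.299).

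The remaining inflammatory-type members had overlapping genotypes. Fkbp5, a co-chaperone induced by glucocorticoids, averaged 26.3 ± 3.66 CPM in Tg and 25.6 ± 2.66 CPM in NTg (SD, n = 4; log2 fold change 0.03, SE 0.10). Fbln5, an elastic-fibre protein, averaged 10.98 ± 1.6 CPM in Tg and 10.2 ± 0.950 CPM in NTg. Amigo2, a neuronal and glial adhesion protein, averaged 17.2 ± 4.18 CPM in Tg and 18.5 ± 2.11 CPM in NTg, with the highest and the lowest of all 8 values both in Tg libraries. Exons of Amigo2 overlap those of the protein-coding gene Pced1b on the opposite strand, which averaged 3.60 CPM in Tg and 3.94 CPM in NTg. Ugt1a1 shares exons with its whole gene cluster, so reads of any member can be hard to assign to it.

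**Figure D2:**
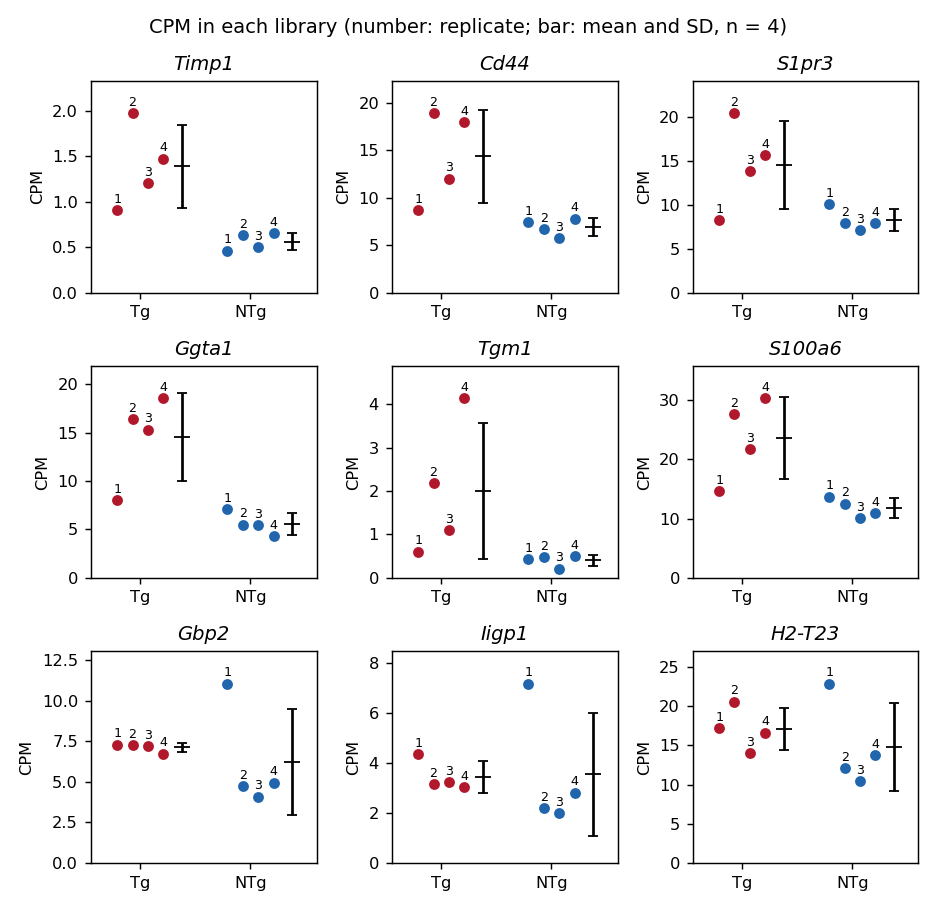
CPM of 9 members in each library, Tg to the left and NTg to the right, with the replicate number above each point and the mean and SD (n = 4) as a bar, on linear axes from 0. In the upper 2 rows Tg replicate 1 lies below the other Tg libraries, at 8.65 CPM for Cd44 where the others reach 12.0 to 18.9 CPM. In the lowest row NTg replicate 1 lies above all others, at 11.05 CPM for Gbp2.

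Of the 11 injury-type markers, 3 of the 10 tested were higher in Tg at an unadjusted p under 0.05, against a background of 4.68%. Tgm1, a transglutaminase that cross-links proteins, was at 0.604, 2.19, 1.101 and 4.13 CPM in Tg replicates 1 to 4 and at 0.429, 0.477, 0.213 and 0.494 CPM in NTg replicates 1 to 4. It had the highest fold change of all members and also a wide spread in Tg, from 40 to 241 counts, against 12 to 30 counts in NTg libraries. Its exons overlap an antisense gene, Gm49067, at 0.0735 CPM in Tg and 0.0660 CPM in NTg on average. The log2 fold change was 2.30 (SE 0.56; edgeR adjusted p = 0.195, DESeq2 adjusted p = 0.00103). Ptx3, a secreted pentraxin, was at 0.498, 1.59, 0.602 and 0.994 CPM in Tg replicates 1 to 4 and between 0.297 and 0.462 CPM in NTg libraries (log2 fold change 1.25, SE 0.36). Both genes had no overlap between genotypes, and Ptx3 was called by no tool (edgeR adjusted p = 0.321, DESeq2 adjusted p = 0.0929). Ptx3 lies inside Veph1 on the opposite strand, which averaged 0.0842 CPM in Tg and 0.122 CPM in NTg. Cd109, a membrane-anchored protein that binds TGF-beta, was at 3.94, 7.646, 6.49 and 7.37 CPM in Tg replicates 1 to 4 and between 3.70 and 4.34 CPM in NTg libraries. Its log2 fold change was 0.67 (SE 0.19; edgeR adjusted p = 0.299, DESeq2 adjusted p = 0.0365), with Tg replicate 1 inside the NTg range.

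The other 7 tested injury-type markers had log2 fold changes between -0.23 and 0.32, and each overlapped between genotypes. Clcf1, a cytokine of the interleukin-6 family, averaged 1.08 ± 0.326 CPM in Tg and 0.863 ± 0.227 CPM in NTg (SD, n = 4; log2 fold change 0.32, SE 0.25). S100a10, a partner of annexin, averaged 18.6 ± 2.09 CPM in Tg and 16.0 ± 1.65 CPM in NTg (log2 fold change 0.22, SE 0.10; edgeR adjusted p = 0.686). Sphk1, the kinase that makes the ligand of S1pr3, averaged 4.27 ± 1.07 CPM in Tg and 4.09 ± 1.38 CPM in NTg. Ptgs2, the inducible cyclooxygenase, which neurons also express, averaged 8.66 ± 2.85 CPM in Tg and 10.1 ± 1.82 CPM in NTg (log2 fold change -0.23, SE 0.22). Emp1, a membrane protein, averaged 3.94 ± 1.01 CPM in Tg and 4.01 ± 0.891 CPM in NTg. Tm4sf1, a membrane protein also found in endothelium, averaged 13.1 ± 1.32 CPM in Tg and 12.7 ± 2.63 CPM in NTg. B3gnt5, a glycosphingolipid enzyme, averaged 5.72 ± 0.456 CPM in Tg and 5.04 ± 2.05 CPM in NTg, with NTg replicate 4 highest at 8.01 CPM.

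Of the 3 further genes, 1 was higher in Tg at an unadjusted p under 0.05, against a background of 4.68%. S100a6, a small calcium-binding protein, was at 14.6, 27.6, 21.7 and 30.3 CPM in Tg replicates 1 to 4 and at 13.7, 12.5, 10.004 and 10.9 CPM in NTg replicates 1 to 4. All Tg libraries lay above all NTg libraries, with replicate 1 by a small margin, and the log2 fold change was 1.00 (SE 0.20; edgeR adjusted p = 0.128, DESeq2 adjusted p = 0.000108). Its relative S100a11 averaged 5.001 ± 0.967 CPM in Tg and 4.07 ± 0.569 CPM in NTg (SD, n = 4; log2 fold change 0.30, SE 0.16), with overlap. Tnc, the matrix protein tenascin, averaged 6.30 ± 1.05 CPM in Tg and 7.39 ± 1.505 CPM in NTg (log2 fold change -0.23, SE 0.17).

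**Figure D3:**
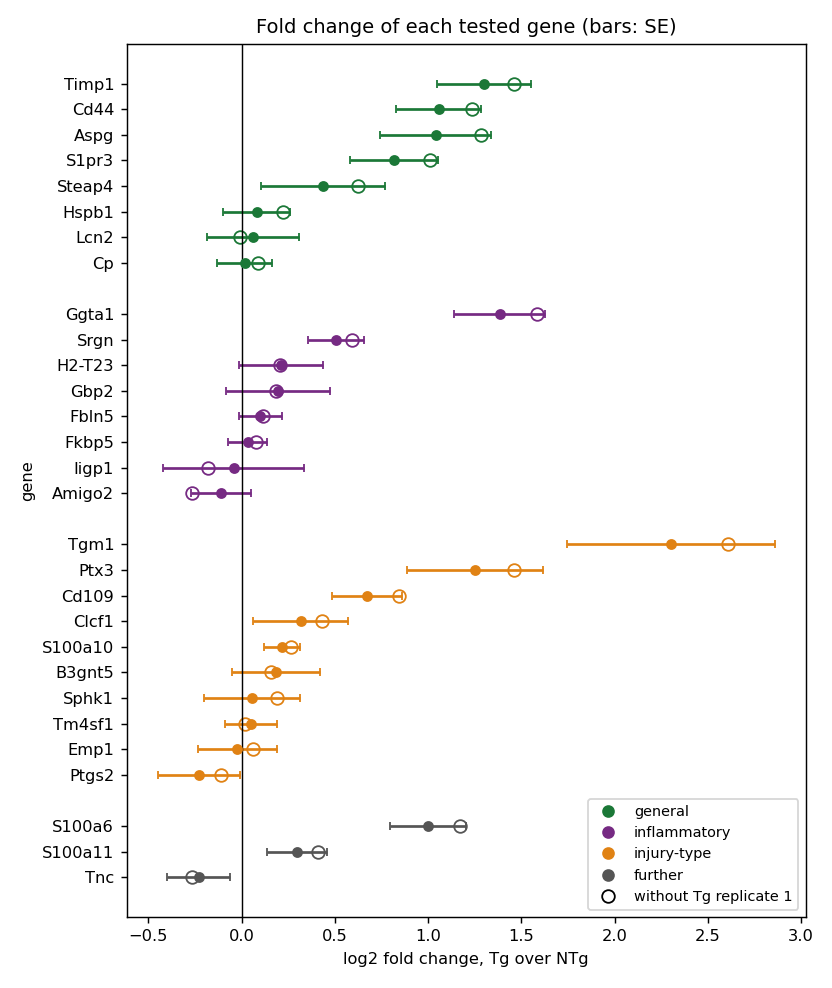
Log2 fold change, Tg over NTg, of each tested member with its SE (filled points and bars, 4 libraries per genotype) and the same without Tg replicate 1 (open circles, 3 against 4). The 10 members at an unadjusted p under 0.05 run from 0.50 for Srgn to 2.30 for Tgm1, and the open circle lies further right for each of these 10.

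The number of members called depended on the tool, on the filter on low counts and on 1 library, Tg replicate 1. With no filter edgeR called 4 members, and 127 of the 39716 genes with any count. Tg replicate 1 was the lowest Tg library in 18 of the 29 tested members and in all 10 with an unadjusted p under 0.05, where it was lowest in 25.8% of all genes tested and in 63.1% of the 1011 genes higher in Tg at that p. In 4 of those 10 members it was not above the highest NTg library, and replicates 2 to 4 were above it in all 10. Without Tg replicate 1, edgeR called 8 members, all higher in Tg, against a background of 1.26%: S1pr3, Timp1, Cd44, Aspg, Ggta1, Tgm1, Cd109 and S100a6. These include all 7 that DESeq2 called on the 8 libraries. The log2 fold changes were then 1.46 for Timp1 (edgeR adjusted p = 0.0136), 1.58 for Ggta1 (edgeR adjusted p = 0.00138) and 2.61 for Tgm1 (edgeR adjusted p = 0.0231). Leaving out any other single library, edgeR called 0 members.

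The position of a library in a subset, the mean log2 CPM of its tested members minus the NTg mean, shows the same split. In the general subset Tg replicates 1 to 4 were at 0.04, 0.90, 0.65 and 0.62, and the NTg libraries between -0.22 and 0.21. In the injury-type subset they were at 0.02, 0.75, 0.42 and 0.52 against -0.11 to 0.09 in NTg libraries. In both, Tg replicate 1 lay among the NTg libraries. In the inflammatory subset the Tg libraries were close together, at 0.27, 0.41, 0.33 and 0.27, while NTg replicate 1 was at 0.42 and the other NTg libraries were between -0.23 and -0.09. The closeness of the Tg libraries is that of a mean, since Tg replicate 1 was the lowest Tg library in 3 of the 8 tested members. Ggta1 was at 0.54 in Tg replicate 1 and at 1.57, 1.47 and 1.75 in Tg replicates 2 to 4. Amigo2 went the other way, at 0.28 against -0.12, -0.11 and -0.59. The median log2 fold change of the inflammatory members was 0.53 without NTg replicate 1, against 0.15 with it. Whether the subsets differ from each other in response was not tested.

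**Figure D4:**
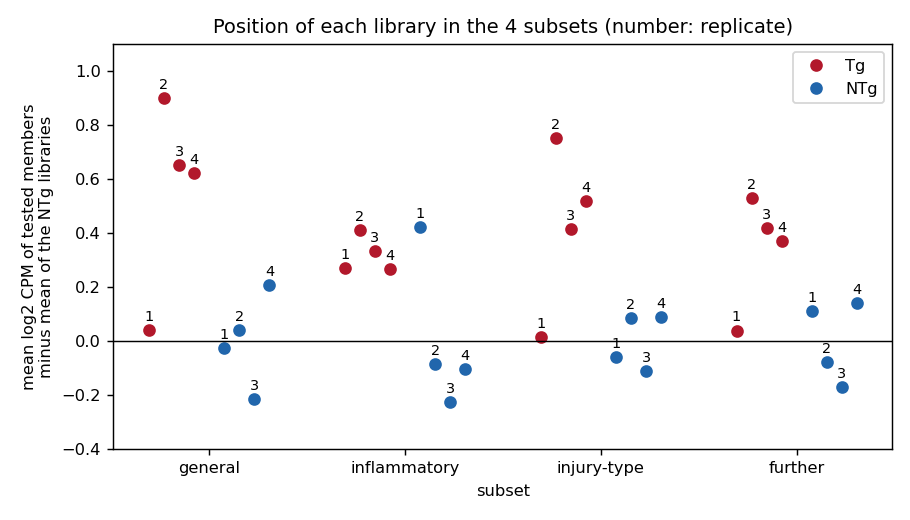
Mean over the tested members of each subset of log2 CPM minus the NTg mean (y axis), for each library, with the replicate number above the point and Tg left of NTg. Tg replicate 1 lies near 0 in the general, injury-type and further subsets and near the other Tg libraries in the inflammatory one, where NTg replicate 1 is the highest library at 0.42.

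A list of 20 further reactive astrocyte genes outside the members gives the setting. Of these, 14 were higher in Tg at an unadjusted edgeR p under 0.05 and 0 lower. The background at that p was 4.68% higher and 2.68% lower. The median log2 fold change of the 20 was 0.56. With adjustment over all genes edgeR called 1, the chemokine Cxcl10, against a background of 0.0139%. DESeq2 called 10, all higher, against a background of 1.25%. Osmr, the oncostatin M receptor, was at 11.2 to 28.0 CPM in Tg and 4.82 to 8.13 CPM in NTg libraries, and the protease inhibitor Serpina3n at 54.7 to 186 CPM in Tg and 33.5 to 51.8 CPM in NTg. Cxcl10 averaged 4.22 ± 1.14 CPM in Tg and 0.485 ± 0.121 CPM in NTg (SD, n = 4), a log2 fold change of 3.11 with SE 0.24 (adjusted p = 0.00146, edgeR). Like Gbp2, Iigp1 and H2-T23 it was highest among NTg libraries in replicate 1, at 0.661 CPM against 0.388 to 0.462 CPM in NTg replicates 2 to 4. It differed from these members in that NTg replicate 1 lay far below all Tg libraries. Of the 15 astrocyte identity genes 2 were higher and 2 lower at that p (median 0.02), among them the water channel Aqp4 (337.5 ± 53.1 CPM in Tg and 241 ± 39.2 CPM in NTg), the growth factor receptor Fgfr3 (90.7 ± 3.13 CPM in Tg and 107.5 ± 7.12 CPM in NTg) and the proteoglycan Gpc5 (26.7 ± 3.46 CPM in Tg and 33.7 ± 1.28 CPM in NTg).

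Markers of microglia were higher alongside the members. All 12 microglia and macrophage markers were detected, and all 12 were higher in Tg at an unadjusted edgeR p under 0.05. The background at that p was 4.68% higher and 2.68% lower. With adjustment over all genes edgeR called 0 of the 12 and DESeq2 8, against a DESeq2 background of 1.25% higher in Tg. Their summed level was 464 to 773 CPM in Tg and 326 to 436 CPM in NTg libraries. As in the members, Tg replicate 1 had the lowest Tg sum, and Trem2, a microglial lipid receptor, was at 32.0, 62.0, 53.3 and 61.7 CPM in Tg replicates 1 to 4 against 15.6 to 21.8 CPM in NTg libraries. Since Cd44, Srgn, Timp1 and S100a6 can be expressed by such cells, this is given beside them, and the part of microglia in their differences was not tested. At the same p, endothelial markers had 4 of 10 lower and 0 higher in Tg (summed level 191 to 257 CPM in Tg and 244 to 302 CPM in NTg), including the efflux pump Abcb1a (29.8 ± 2.51 CPM in Tg and 36.7 ± 2.15 CPM in NTg). Choroid plexus markers had 9 of 10 lower and 0 higher (summed level 329 to 593 CPM in Tg and 631 to 967 CPM in NTg). The summed levels of the genotypes overlapped for endothelium but not for choroid plexus. They also overlapped in the remaining lists. Border macrophage markers summed to 8.10 to 15.3 CPM in Tg and 8.80 to 13.9 CPM in NTg. Those of fibroblasts and meninges summed to 148 to 176 CPM in Tg and 147 to 176 CPM in NTg. Those of pericytes and smooth muscle summed to 116 to 142 CPM in Tg and 127 to 148 CPM in NTg. Red blood cell markers summed to 3003 CPM in Tg replicate 1 and to 489, 732 and 448 CPM in Tg replicates 2 to 4. In NTg libraries they summed to 1282 to 3271 CPM, so only Tg replicate 1 lay within the NTg range. Without Tg replicate 1, edgeR called 4 of these 5 markers, all lower in Tg, against a background of 0.174%. Neutrophil markers (2.22 to 10.3 CPM in Tg, 2.77 to 9.42 CPM in NTg), T cell markers (9.72 to 15.2 CPM in Tg, 11.4 to 17.8 CPM in NTg), oligodendrocyte markers (5764 to 7080 CPM in Tg, 6674 to 8218 CPM in NTg) and neuronal markers (6066 to 7020 CPM in Tg, 6769 to 7304 CPM in NTg) overlapped as well. No marker of any list was at 0 in all libraries, and the part of these cell types in the members' values was not tested.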

How the data were processed

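Polyadenylated RNA was measured in 8 libraries (4 Tg, 4 NTg, by GEO title). The authors deposited raw read counts per Ensembl gene. The submitters' processing notes name the build GRCm39 with the tools STAR and DESeq2, without versions, and per the labels' protocols the kit was TruSeq version 2 with paired 75-base reads. Which program counted reads, and on which annotation release, is not stated in the sources used here. Of the members, 9 have exons that overlap another gene in GENCODE M21 (older build), so their counts are less certain. In 4 of them, Amigo2, Clcf1, Cp and Ugt1a1, the other gene is protein-coding. Symbols came from an identifier table (52073 of 56748 identifiers). All libraries carry the batch value F, and the labels do not say that each is a separate animal, so p-values may measure technical spread only. No pair of libraries within a genotype agreed within sampling noise (chi-square per degree of freedom 10.9 or more).

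Genes passing edgeR's filterByExpr (minimum count 10, total 15) were TMM-scaled and tested with edgeR 4.0.16's quasi-likelihood F test (R 4.3.3, Benjamini-Hochberg over all genes tested, threshold 0.05, SE as log2 fold change over the square root of F). Alternatives were DESeq2 1.42.0, limma-voom (limma 3.58.1), other scaling and filters, a replicate block, robust dispersion and libraries left out. The scripts were tested on simulated data. The members, lists and motifs were chosen with earlier results of these data known. All members are named, and of each marker list at most 4 genes, those with the smallest p.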

Additional observations from a re-analysis of the deposited data

Results flagged for a closer look

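In groups of 4 libraries, a highest or lowest value was looked for whose gap to its neighbour takes more of the group's range than Dixon's test allows. Over the 90 groups examined 5 such values were found, where chance alone gives about 1 in 20. Tg replicate 1 was low in App, at 2532 CPM where the other Tg libraries reached 2934 to 2980 CPM. The same library was high in Iigp1, at 4.36 CPM where the others lay between 3.02 and 3.22 CPM. NTg replicate 1 was high in Iigp1, at 7.17 CPM against 1.99 to 2.81 CPM in the other NTg libraries, and in Gbp2, at 11.05 CPM against 4.09 to 4.94 CPM. NTg replicate 3 was low in Fbln5, at 8.81 CPM against 10.70 to 10.73 CPM in the rest of its group.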

How the results depend on the processing

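The main test called 3 genes and 0 members, and so did limma-voom. DESeq2 called 345 genes, with 3 general, 1 inflammatory, 2 injury-type and 1 further member. With no filter on low counts edgeR called 127 of 39716 genes, with 2 general (Timp1, Cd44), 1 inflammatory (Ggta1) and 1 further member (S100a6). With each library left out in turn, 3 to 314 genes were called, with 0 to 4 general, 0 to 1 inflammatory, 0 to 2 injury-type and 0 to 1 further members. The highest counts came without Tg replicate 1, and 16 genes were called without NTg replicate 1 and 9 without Tg replicate 2. With Tg replicate 1 and NTg replicate 1 left out together, chosen after seeing the data, edgeR called 318 genes, with 4 general, 2 inflammatory, 1 injury-type and 1 further member, and the inflammatory median was 0.47. Gbp2 was then called and Tgm1 was not. With the replicate block 1 gene and 0 members were called, and neither Cxcl10 (adjusted p = 0.0775) nor App (adjusted p = 0.0838) was called by edgeR. Deviations of same-numbered libraries correlated at 0.07, -0.03, 0.15 and -0.01. With 4 libraries per genotype these values cannot show whether a replicate number marks a shared litter, day or batch.

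Left-out libraries moved the medians over 0.44 to 0.82 (general), 0.048 to 0.53 (inflammatory, highest without NTg replicate 1), 0.15 to 0.28 (injury-type) and 0.18 to 0.41 (further). Signs turned in members near 0, none of them called: Lcn2 (-0.087 to 0.20), Hspb1 (-0.048 to 0.22), Cp (-0.067 to 0.16), Iigp1 (-0.24 to 0.56), Fkbp5 (-0.069 to 0.094), Amigo2 (-0.27 to 0.024), Sphk1 (-0.12 to 0.28), Emp1 (-0.15 to 0.093) and Tm4sf1 (-0.041 to 0.18). Iigp1 was also above 0 with limma-voom (0.15), the replicate block (0.14) and both libraries left out (0.43). With a library left out, the log2 fold change kept its sign but moved by over 1.5 times for Steap4 (0.27 to 0.72), Clcf1 (0.11 to 0.47), Ptgs2 (-0.43 to -0.097), Tnc (-0.34 to -0.10), H2-T23 (0.074 to 0.50), Gbp2 (0.040 to 0.63), Fbln5 (0.035 to 0.19), B3gnt5 (0.043 to 0.50) and S100a11 (0.18 to 0.41). Other scaling and robust dispersion turned no member's sign and called 0 members. A filter of 1 CPM in 4 libraries removed Steap4, Timp1, Clcf1, Tgm1 and Ptx3. It turned no sign and called 0 among the 24 members left, and the injury-type median was 0.061 and the general median 0.45 over fewer members. The members left hardly moved themselves, for example S1pr3 from 0.816 to 0.819 and Cd109 from 0.673 to 0.677. Why members moved with a library left out was not tested. The SE was highest for Tgm1 (0.56), Iigp1 (0.38), Ptx3 (0.36) and Steap4 (0.33), and Iigp1 is among them despite 1685 counts over all libraries.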
